A study of Mus musculus with 16 samples.

Results

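The genes described here make or carry amino acids and belong to the set that cells raise when amino acids run short or protein folding is stressed. They are Phgdh, Psat1 and Psph (serine synthesis), Shmt2 and Mthfd2 (mitochondrial one-carbon metabolism), Asns (asparagine synthesis) and the transporter subunits Slc7a5, Slc3a2, Slc7a1 and Slc7a11. They were chosen by symbol, 10 of 13275 genes in the RNA table. Open chromatin at them was every ATAC peak overlapping the gene body extended by 2 kb at each end, which gave 34 of 94635 regions when overlapping peaks of all libraries were joined.

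As background, uncharged tRNA activates the kinase GCN2 and unfolded protein in the endoplasmic reticulum activates PERK, and both phosphorylate the initiation factor eIF2α. Translation then slows while that of the transcription factor ATF4 rises, and ATF4, paired with C/EBP factors, switches on genes for amino acid synthesis and uptake. Activated T cells need these genes: serine feeds glycine and the folate-bound carbon units used to build nucleotides, and uptake of leucine and arginine supports the kinase mTORC1.

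The cells were CD8+ T cells of Pmel mice, whose T-cell receptor sees a melanocyte antigen, carrying an LC3-GFP-RFP reporter (LC3 coats autophagosomes). Purified T cells were activated for 3 days with anti-CD3 and anti-CD28 antibody, 2 µg/ml of either, in medium with IL2 (100 IU/ml), were exposed to carbon monoxide (CO) for 24 h, and were then sorted by reporter signal as LC3-GFP positive or negative. Each comparison sets positive against negative cells, and both populations had the same antibodies, IL2 and CO; the series' title concerns autophagy regulated by PERK under CO. The sorted cells gave 2 positive and 2 negative RNA libraries, and another 2 and 2 libraries for ATAC-seq, an assay that marks accessible DNA with the Tn5 transposase (in vitro). For the tumour libraries, positive or negative cells were transferred to C57BL/6 mice 12 days after these were given B16-F10 melanoma cells. From every tumour, Vβ13+CD8+ cells were collected 15 days after transfer, 4 mice per group and 1 library per mouse. That gate can also hold CD8+ cells of the host that use this receptor chain. The labels do not give the promoter of the reporter, nor whether RNA and in vitro replicates came from separate animals or cultures, so p-values reflect the spread among these libraries alone, and that spread can be technical.

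RNA totals ran from 14567540 to 17557628 counts. The CD8 T-cell markers Cd3e, Cd3d, Cd3g, Cd8a and Cd8b1 summed to 1554 to 1558 CPM (counts scaled by library size, with TMM) in positive and 1743 to 1794 in negative libraries, and 5 of 5 were called lower in positive cells, at a median log2 difference of -0.20. Of these calls 4 were lost without positive replicate 1 (adjusted p from 0.0818 to 0.235) and 4 without positive replicate 2 (0.0532 to 0.260). Cd3e, Cd8a and Cd8b1 had peaks in all 12 ATAC libraries. ATAC libraries held 49634 to 63761 peaks in vitro and 27406 to 55171 in tumours. Positive replicate 1 had the fewest of the tumour libraries and negative replicate 2 the most. That negative library was also the only tumour library with peaks at the melanocyte gene Dct (2 peaks), the myeloid genes Lyz2 (1) and Adgre1 (1), and it had 3 peaks at Csf1r. Tumour results that rest on it are given with and without it.

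Promoter sequences were available for 9 of the genes, in 11 entries of 250 bases before to 50 after a start. On either strand, the letters TGATGNAA, the composite site of ATF4 with a C/EBP factor, were in 2 of the 11, those of Asns and Slc7a11, against 3.97% of 32851 mouse promoters. The letters TGACNNNGC, the site of NRF2 with a small MAF, were in 4 (Asns, Phgdh, Psph and 1 of the Slc7a1 entries), against 12.4% of all. CACGTG, the E-box of MYC and MAX, was in 0, against 7.15% of all. Of the 3 promoters below, that of Asns is shown because it had the largest RNA difference among genes called. Slc7a11 holds the ATF4 letters in both orientations while its RNA had 14 to 24 counts a library. Phgdh had the largest in vitro difference in bases under peaks. Sequences are RefSeq GRCm38.p6, on the minus strand, at chr6:7693160-7693459, chr3:50443564-50443863 and chr3:98339920-98340219; capitals mark the matches to the ATF4 or NRF2 letters.
Asns: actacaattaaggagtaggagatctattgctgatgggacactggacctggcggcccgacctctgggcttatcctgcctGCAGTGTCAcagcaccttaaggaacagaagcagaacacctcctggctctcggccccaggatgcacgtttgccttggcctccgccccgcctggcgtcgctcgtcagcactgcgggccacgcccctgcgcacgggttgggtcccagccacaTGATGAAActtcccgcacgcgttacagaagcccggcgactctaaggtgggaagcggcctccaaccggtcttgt
Slc7a11: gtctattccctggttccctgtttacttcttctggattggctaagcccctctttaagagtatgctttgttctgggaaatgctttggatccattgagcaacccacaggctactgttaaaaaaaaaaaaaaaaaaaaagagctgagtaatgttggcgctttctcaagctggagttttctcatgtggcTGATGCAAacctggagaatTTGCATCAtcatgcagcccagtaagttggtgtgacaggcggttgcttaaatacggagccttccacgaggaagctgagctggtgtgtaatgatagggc
Phgdh: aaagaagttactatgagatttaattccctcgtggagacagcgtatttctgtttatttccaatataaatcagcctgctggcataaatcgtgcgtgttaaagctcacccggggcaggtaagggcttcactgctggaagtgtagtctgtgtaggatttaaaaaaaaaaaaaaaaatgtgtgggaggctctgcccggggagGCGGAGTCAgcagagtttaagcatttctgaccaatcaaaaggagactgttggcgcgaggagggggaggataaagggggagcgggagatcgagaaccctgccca
In Asns the ATF4 letters (TGATGAAA) began 23 bases before the start and the NRF2 letters 172 bases before it. In Slc7a11 the ATF4 letters began 66 bases before the start as TGATGCAA and 47 bases before it on the opposite strand as TTGCATCA. In Phgdh the NRF2 letters began 53 bases before the start. A match is a run of letters, not a measured site.

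In RNA, asparagine synthetase, both mitochondrial one-carbon enzymes and both subunits of the leucine transporter were lower in LC3-GFP positive cells, by 1.19-fold to 1.53-fold. The serine synthesis enzymes, the arginine transporter Slc7a1 and the cystine transporter Slc7a11 did not pass the test. In all, 5 of the 10 genes were called lower and 0 higher (edgeR's quasi-likelihood test, Benjamini-Hochberg adjusted p under 0.05), where 25.0% of 12022 genes tested were called, 13.6% lower and 11.3% higher. The median log2 difference (positive minus negative) was -0.29 over the 10 genes and 0.00 over all genes tested. Summed over the 10, the level was 2340.1 and 2324 CPM in positive replicates 1 and 2 and 2841 and 2605 CPM in negative replicates 1 and 2. These CPM values are not per transcript length, so levels are compared between libraries and not between genes. In bulk RNA, fewer expressing cells and less RNA per cell cannot be told apart.

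Asns (chr6:7675171-7693182 in mm10, minus strand) makes asparagine from aspartate and glutamine. Its level was 64.8 and 65.2 CPM in positive replicates 1 and 2 and 111 and 88.0 CPM in negative replicates 1 and 2. The positive libraries were nearly equal, both negative libraries lay above them, and the negative libraries differed from each other by about as much as the lower of them did from the positive ones. The log2 difference was -0.61 (SE 0.08), 1.53-fold higher in negative cells, with an edgeR adjusted p of 2.45e-05.

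Among the serine synthesis enzymes, Phgdh (chr3:98313171-98339969), which oxidises 3-phosphoglycerate in the first step, was at 321 and 322 CPM in positive and 312 and 306 CPM in negative libraries. Psat1 (chr19:15905123-15925059), the aminotransferase of the next step, was at 328 and 330.4 CPM in positive and 379 and 332 CPM in negative libraries. Psph (chr5:129765558-129787253), the phosphatase that releases serine, was at 47.1 and 45.3 CPM against 45.0 and 43.3 CPM. Libraries of the 2 populations did not overlap for any of these 3 genes, but the gaps were small: Phgdh and Psph were on the higher side in positive cells and Psat1 on the lower. Their log2 differences were 0.06 (95% interval -0.03 to 0.15), -0.11 (-0.23 to 0.00) and 0.07 (-0.09 to 0.22) for Phgdh, Psat1 and Psph, with edgeR adjusted p of 0.373, 0.139 and 0.563. The Psat1 difference came mainly from negative replicate 1: without negative replicate 2 it was -0.20 and called lower (adjusted p = 5.28e-06). Such non-overlap was common, with 61.5% of genes tested having CPM ranges that did not overlap, and 8 of these 10.

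Both mitochondrial one-carbon enzymes were called lower in positive cells. Shmt2 (chr10:127517123-127522444), which splits serine into glycine and a folate-bound carbon unit, was at 344 and 348 CPM in positive and 435 and 386 CPM in negative libraries. Mthfd2 (chr6:83305704-83317604), which oxidises that unit, was at 159 and 165 CPM in positive and 210.3 and 195 CPM in negative libraries. For both genes every negative library was above every positive one, negative replicate 1 being the highest. The log2 difference was -0.25 (SE 0.05, edgeR adjusted p = 0.0017) for Shmt2 and -0.32 (SE 0.05, adjusted p = 0.000145) for Mthfd2. Without negative replicate 1 the Shmt2 difference was -0.16 and was still called.

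The leucine transporter was lower in positive cells at both of its subunits. Slc7a5 (chr8:121881146-121907686) encodes LAT1, the light chain that carries leucine and other large neutral amino acids. It was at 524 and 498 CPM in positive and 702 and 652 CPM in negative libraries. Slc3a2 (chr19:8706882-8723369) encodes 4F2hc, the heavy chain that LAT1 and xCT need at the cell surface, and was at 221 and 217 CPM in positive and 309 and 285 CPM in negative libraries. Negative libraries were above positive ones at both genes, by more than the libraries of either population differed from each other. The log2 difference was -0.41 (SE 0.05, edgeR adjusted p = 6.74e-06) for Slc7a5 and -0.44 (SE 0.05, adjusted p = 3.61e-06) for Slc3a2.

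Slc7a1 (chr5:148327410-148399904), the cationic amino acid transporter CAT1 that brings in arginine, was at 331 and 332 CPM in positive and 337 and 315 CPM in negative libraries. The populations overlapped, the log2 difference was 0.02 (95% interval -0.07 to 0.12) and the edgeR adjusted p was 0.759. Slc7a11 (chr3:50364936-50443613), the xCT light chain that exchanges cystine for glutamate, had 15 and 18 counts in positive and 24 and 14 counts in negative libraries, or 0.836, 1.13, 1.55 and 0.979 CPM. These libraries overlapped too. The log2 difference of -0.38 had an interval from -1.31 to 0.55 (adjusted p = 0.578), so a difference of the size seen at Asns was not detectable at this depth.

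**Figure D1:**
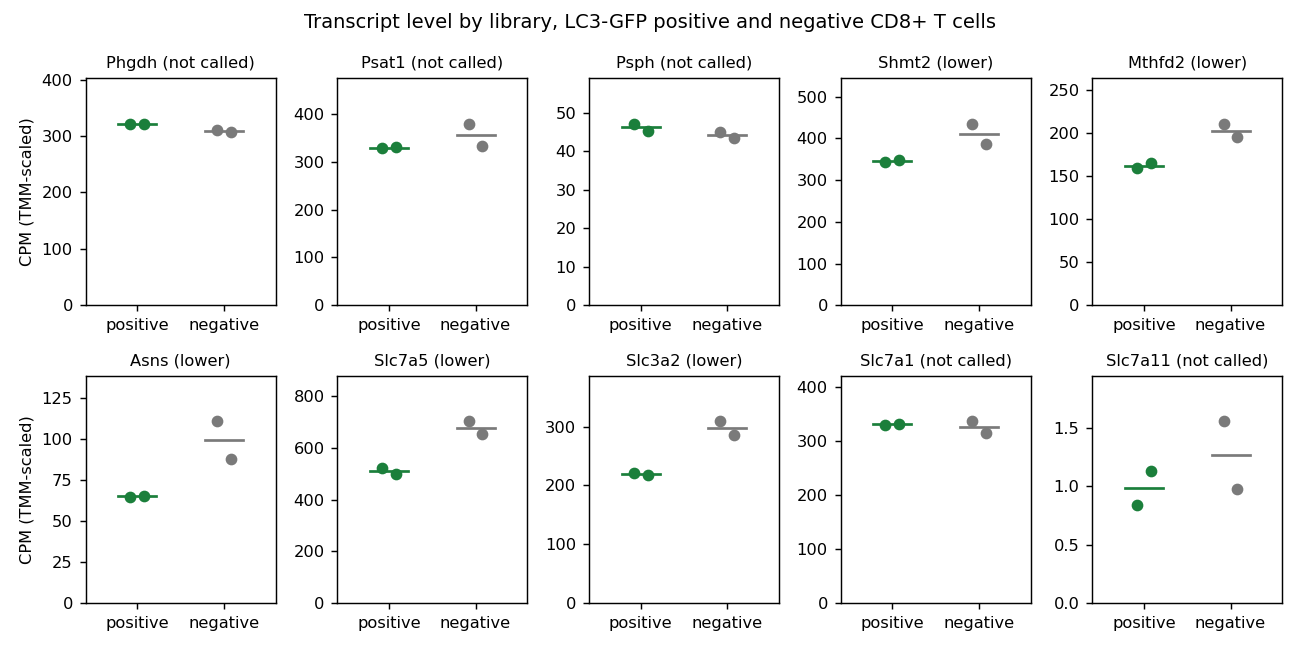
Level of each of the 10 genes in CPM (TMM-scaled, vertical axes starting at 0) in the 2 LC3-GFP positive (green) and 2 negative (grey) RNA libraries; each point is a library, each line the mean, and the panel title gives the edgeR call. Asns, Shmt2, Mthfd2, Slc7a5 and Slc3a2 have both positive libraries below both negative ones and pass the test, while Slc7a11 lies between 0.836 and 1.55 CPM.

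Over the 4 RNA libraries, patterns were set side by side by the Euclidean distance between log2 CPM values centred on each gene's mean, as a description. The gene of the 10 nearest to Slc7a5 was Slc3a2, its partner subunit (distance 0.05), and the nearest to Mthfd2 was Shmt2 (0.09). Among the 8895 other tested genes of at least 10 CPM, those most like Asns were Plxnd1, Gpt2, Apbb1, Pck2 and Sh2b3 (distances 0.06 to 0.12). Those most like Mthfd2 were Hk1, Sipa1l1, Leprotl1, Xylt2 and Slc2a1 (0.02 to 0.03).

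Of the other serine, glycine and one-carbon enzymes, 4 of 14 tested were called higher in positive cells and 1 lower, and the list's median log2 difference was 0.01. Among the genes called higher were Tyms (thymidylate synthase, log2 difference 0.41), Mthfd1 (the cytosolic counterpart of Mthfd2, 0.30) and Shmt1 (the cytosolic counterpart of Shmt2, 0.27). Tyms was at 90.9 and 86.3 CPM in positive and 64.0 and 69.4 CPM in negative libraries, with both positive libraries above both negative ones. The gene called lower, Mthfd1l, is mitochondrial (-0.21). Without positive replicate 1 Shmt1 was not called (adjusted p = 0.0521), nor was Mthfd1l without positive replicate 2 (adjusted p = 0.107). Whether the cytosolic and mitochondrial enzymes differ as groups was not tested.

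Among 17 other enzymes of amino acid synthesis and breakdown, 2 were called higher and 4 lower, with a median log2 difference of -0.05. Pycr1, the last step of proline synthesis, fell by 0.77 and Gpt2, the mitochondrial alanine aminotransferase, fell by 0.62 on the log2 scale. Aldh18a1, also of proline synthesis, and Got1, the cytosolic aspartate aminotransferase, were each at -0.17 and were not called without positive replicate 1 (adjusted p = 0.172 and 0.251), positive replicate 2 (0.117 and 0.139) or negative replicate 1 (0.109 and 0.167). Ass1 (argininosuccinate synthase) was among those called higher, by 0.29, and was not called without positive replicate 2 (adjusted p = 0.108).

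Of 18 other amino acid transporters, 3 were called higher and 5 lower, and the median log2 difference was 0.03. Slc6a9, a glycine transporter, had the largest difference (-1.44), then Slc7a3, an arginine transporter (-0.75, adjusted p = 0.0536 by DESeq2), Slc1a4, which carries serine and alanine (-0.60), Slc43a2, which carries leucine (-0.47), and Slc1a5, the glutamine transporter ASCT2 (-0.17). Slc1a5 was not called without positive replicate 1 (adjusted p = 0.209) or 2 (0.0892). Slc25a32, Sfxn1 and Slc38a1 were called higher (0.30, 0.15 and 0.14), but 0 of these 3 were called by DESeq2 (adjusted p = 0.178, 0.118 and 0.0781) or without positive replicate 1 (0.144, 0.283 and 0.322) or 2 (0.112, 0.131 and 0.136). For Slc38a1 the difference was 0.08 without negative replicate 2 (adjusted p = 0.118, not called).

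Of 21 tested regulators and other outputs of the same response, 13 were called lower in positive cells and 1 higher. Their median log2 difference was -0.22. Over all genes tested, 13.6% were called lower and 11.3% higher. DESeq2 called 9 of the 21 lower and 1 higher, where it called 1688 genes in all against 3000 by edgeR. The largest differences were at Ddit3 (the stress factor CHOP, log2 difference -1.02), Trib3 (a pseudokinase induced by ATF4 and CHOP, -0.97) and Atf5 (-0.95). Trib3 was at 39.0 and 37.7 CPM in positive and 80.1 and 70.3 CPM in negative libraries, so that the populations were far apart relative to the spread within each. Atf4 itself was called lower at -0.16 and was not called without positive replicate 1 (adjusted p = 0.206) or 2 (0.0963). Myc was called higher by 0.18, a call lost without positive replicate 1 (adjusted p = 0.119) or 2 (0.0777).

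**Figure D2:**
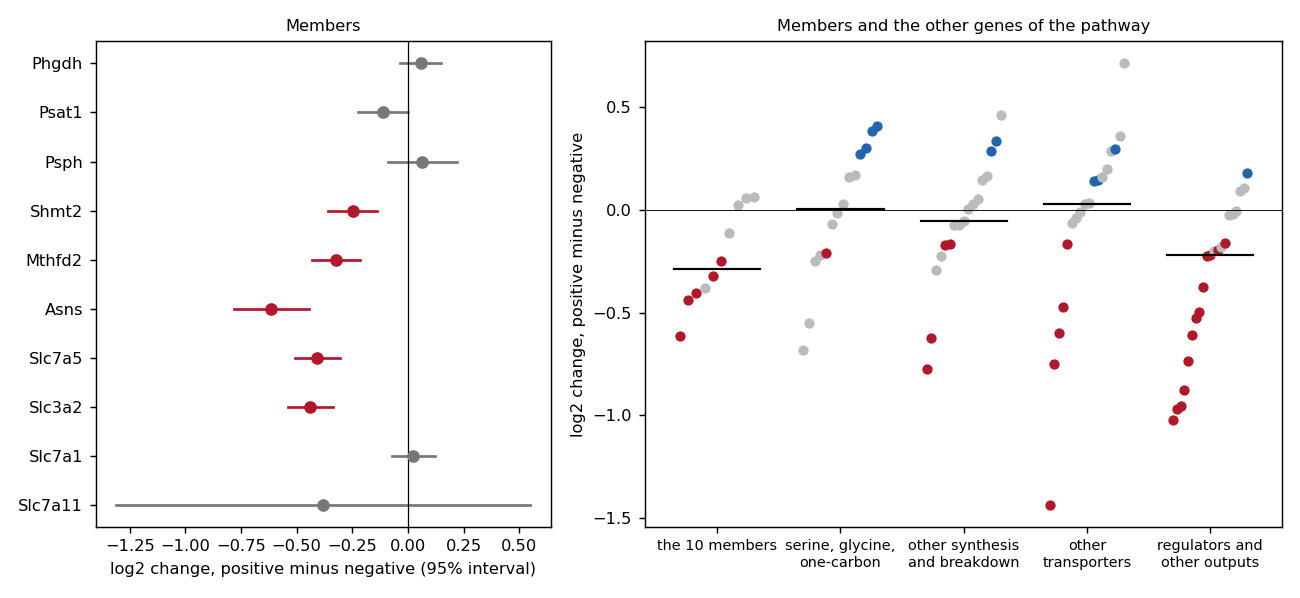
Left, log2 difference in RNA (positive minus negative) of the 10 genes with 95% intervals; right, the same value for each gene of the 10 and of the 4 other lists, with a bar at each list's median (red, called lower; blue, called higher; grey, not called by edgeR). The medians of the 10 genes and of the regulators lie at -0.29 and -0.22, and those of the other 3 lists between -0.05 and 0.03.

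Markers of other cell types moved with the populations. The B-cell genes Cd79a, Cd79b, Ms4a1 and Cd22 summed to 10.5 to 11.5 CPM in positive and 4.14 to 5.45 CPM in negative libraries (3 of 4 called higher). Cd79a had 37 and 32 counts in positive and 2 and 2 in negative libraries. The NK genes Klrb1c and Klrd1, which T cells also express, summed to 22.9 CPM in positive and 39.5 to 52.0 CPM in negative libraries (2 of 2 lower). The myeloid genes Itgam, Cd68 and Mpeg1 summed to 4.33 to 4.35 and 7.06 to 7.18 CPM (1 higher, 1 lower). The precursor of ribosomal RNA, Rn45s, took 1.43% to 1.51% of counts in positive and 3.20% to 3.58% in negative libraries. The part of these, and of the lower CD8 T-cell markers, in the differences of the 10 genes was not tested; without Rn45s in the table the same number of the 10 was called, 5.

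In vitro, bases under peaks differed most at Phgdh and Shmt2, whose start peaks were longer in LC3-GFP positive cells. Phgdh is the first enzyme of serine synthesis, and Shmt2 uses the serine made. By the authors' fold enrichment, neither start peak ranked higher in both positive than in both negative libraries. Measured as bases under peaks in the gene body with 2 kb at each end, 3 of the 10 genes had more in both positive than in both negative libraries (Phgdh, Shmt2, Psat1), 2 had less (Psph, Mthfd2) and 5 overlapped. Over 12917 genes with a peak, 40.0% did not overlap, 31.6% with more and 8.40% with less in positive cells, so the 10 genes' share was near that of all genes. No p-value is given, since an exact two-sided permutation test of 2 against 2 libraries cannot go below 0.333. Positive libraries had 63761 and 53869 peaks in all and negative libraries 56476 and 49634, and the part of these totals in the result was not tested. As a share of each library's covered bases, 2 of the 10 were higher in positive cells (Phgdh and Shmt2). On that scale 5 were lower (Psph, Mthfd2, Slc7a11, Slc7a5 and Slc3a2), and Psat1, Asns and Slc7a1 overlapped. The covered bases of whole libraries were 64539203 and 52041527 in positive and 56352819 and 47523030 in negative cells. The share over all genes was not taken on that scale, so these counts have no background beside them. In covered bases, the split was 3 more and 6 less without positive replicate 1, and 6 more and 3 less without positive replicate 2. The 40.0% over all genes is for 2 against 2 libraries, and no such share is given with 1 left out.

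Open chromatin at markers of other cell types differed between the in vitro populations too, not always in the direction of the summed RNA. Over single genes with a peak, 31.6% had more covered bases in both positive libraries and 8.40% had less. The B-cell genes Cd79a, Cd79b, Ms4a1, Cd22 and Pax5 had 22686 and 20032 bases under peaks in positive and 13470 and 11068 in negative libraries, with peaks at 5 of 5 in each library. The 6 myeloid markers had 10564 and 9009 bases in positive and 7000 and 6538 in negative libraries. RNA counts list 3 of these 6, Itgam, Cd68 and Mpeg1, and their sum was lower in positive cells. Within that sum Cd68 was called lower (log2 difference -1.54) and Mpeg1 higher (5.06), so the 2 assays are not compared over like sets. In covered bases, T-cell markers were lower in positive cells. The 6 CD8 T-cell markers had 15903 and 12623 bases in positive and 18282 and 16532 in negative libraries. The 3 CD4 T-cell markers had 5566 and 6073 against 7765 and 6675. Their summed RNA was lower in positive cells too, at 59.1 and 53.9 CPM against 78.5 and 70.6 CPM. Of the 2 CD4 T-cell markers tested in RNA, 1 was called higher in positive cells and 1 lower. The 3 NK markers, at 3037 and 1951 against 2076 and 872 bases, and the melanoma markers, at 6428 and 5275 against 6218 and 5461, overlapped. The part of these in the differences at the 10 genes was not tested.

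Phgdh had 4166 and 4156 bases under peaks in positive and 2303 and 2962 in negative libraries. Most of this gap lay in the peak over the start, which was 2973 and 2871 bases long in positive and 1393 and 1974 in negative libraries. The upstream edge was alike, 143 and 116 bases before the start in positive and 143 bases before it in both negative libraries. The peak reached 2829 and 2754 bases into the gene in positive cells and 1249 and 1830 in negative cells. The region centred 26.65 kb in was longer in positive cells as well, at 569 and 782 against 378 and 466 bases. With every library cut to the same number of peaks, that region was left in 1 of 2 positive and 2 of 2 negative libraries. The NRF2 letters of the promoter printed above lay under a peak in all 12 ATAC libraries. Phgdh RNA, at 321 and 322 against 312 and 306 CPM, did not pass the test.

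Shmt2 had a single region, over its start, which covered 1925 and 1454 bases in positive and 998 and 1058 bases in negative libraries. It reached 1673 and 1362 bases into the gene in positive and 903 and 960 in negative cells. The peak was longer in both positive libraries, while the RNA of Shmt2 was called lower in positive cells. By fold enrichment the populations overlapped. The peak stood above 46.5% and 39.9% of its own library's peaks in positive and 45.4% and 37.0% in negative libraries. Psat1 (3414 and 3446 against 3299 and 3364 bases), Psph (2680 and 2521 against 2822 and 2712) and Mthfd2 (2585 and 2380 against 2774 and 2586) were set apart by gaps smaller than the difference between libraries of 1 population. The direction at Psat1 turned with the gene body alone (a mean difference of -3 bases) and as a share of covered bases, and that at Mthfd2 turned with a window of 10 kb (14 bases).

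**Figure D3:**
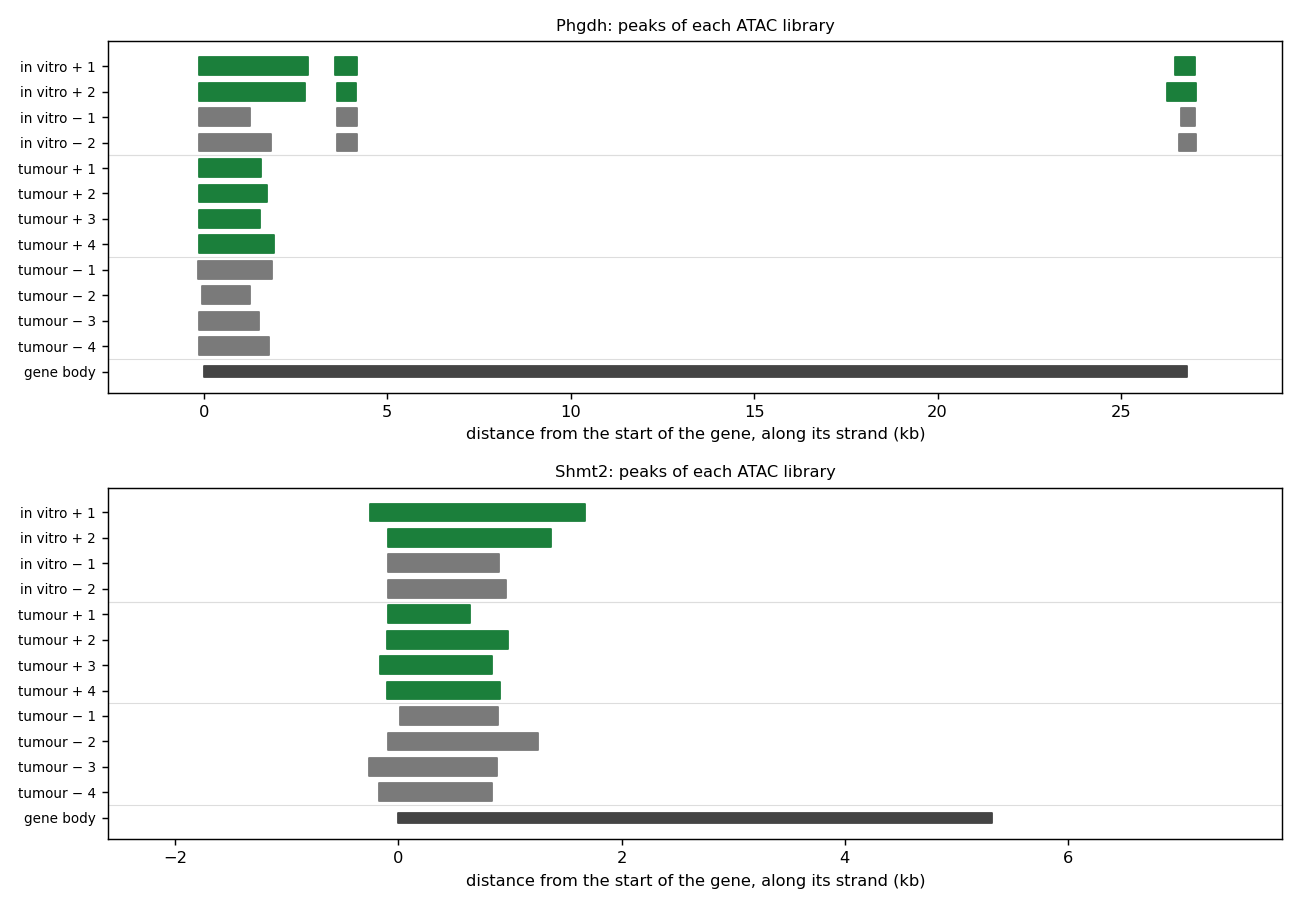
Peaks of each ATAC library along Phgdh and Shmt2, by distance in kb from the gene's start along its strand (green, LC3-GFP positive; grey, negative; black, gene body; 1 row per library). In vitro positive libraries have start peaks reaching 2829 and 2754 bases into Phgdh and 1673 and 1362 bases into Shmt2, beyond those of the negative libraries, and the Phgdh regions at 3.88 and 26.65 kb are in in vitro rows only.

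The other genes overlapped between populations in vitro. Asns had 970 and 994 bases under its single peak in positive and 991 and 1190 in negative libraries. By the authors' fold enrichment this peak stood above 97.1% to 99.8% of the peaks of its own library in vitro, and above 75.0% to 96.9% in tumours, while Asns had the largest fall in RNA among the genes called. Slc7a5 had 3624 and 3005 bases in positive and 3591 and 3370 in negative libraries. Slc3a2 (6260 and 4965 against 5977 and 5166), Slc7a1 (7740 and 6295 against 6686 and 6562) and Slc7a11 (2071 and 1226 against 2588 and 1560) were likewise mixed, positive replicate 1 having more than positive replicate 2 at each. No region of the 10 genes was found in every library of 1 in vitro population and none of the other, where 8.05% of 72615 in vitro regions were found so for positive and 3.27% for negative cells.

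Open chromatin was for the most part shared by all libraries at the starts of these genes, and less so elsewhere in them. Of the 34 regions, 16 (47.1%) were found in all 12 ATAC libraries, against 21.2% of 94635 regions, and 7 in 1 library alone. The 94635 regions are those of the whole genome, near a gene or not, so the 2 shares are of unlike sets. The 5′ end of the gene lay in a region of all 12 libraries for 9 of the 10, Slc7a11 being the exception, against 81.8% of 13275 genes. The start regions of 3 genes also overlapped a neighbour, Cct6a for Psph, BC048644 for Slc7a5 and Snhg1 for Slc3a2, so those peaks cannot be given to 1 gene.

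In T cells from tumours, covered bases overlapped between mice given LC3-GFP positive and negative cells at all 10 genes, where 4.30% of 12900 genes did not overlap (0.868% with more and 3.43% with less in positive). The nearest to a separation was Slc7a5, with less open chromatin in most positive mice. By the exact two-sided permutation test over 4 against 4 mice, whose smallest p is 0.0286, 0 of 12900 genes passed Benjamini-Hochberg adjustment. The 555 with an unadjusted p under 0.05 are the same 4.30% that did not overlap. With that smallest p, adjustment could pass genes only if most of the 12900 separated fully, so 0 passing is not informative. A difference that misses this test is not shown to be absent. Without negative mouse 2, or without positive mouse 1, the groups still overlapped at all 10 genes.

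Slc7a5 had 2441, 3054, 2654 and 2857 bases under peaks in positive mice 1 to 4 and 3106, 3135, 3092 and 2886 bases in negative mice 1 to 4. Positive mouse 2 reached into the negative range and negative mouse 4 was the lowest of its group. The exact permutation p was 0.0571 (adjusted 0.803, 4 mice per group). The overlap rested on positive mouse 2 lying above negative mouse 4. Leaving out either of these mice therefore removes it by construction, with less in positive, and adds no support. No share over all genes is given with a mouse left out. Most of the gap was in a region centred 9.08 kb into the gene, at chr8:121897879-121899327, which covered 454, 932, 581 and 645 bases in positive and 956, 1293, 1036 and 924 bases in negative mice. The peaks over the start covered 1987, 2122, 2073 and 2212 bases in positive and 2150, 1842, 2056 and 1962 bases in negative mice, with the groups mixed. In vitro the internal region covered 1311 and 1055 bases in positive and 1397 and 1194 in negative libraries, again mixed.

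Phgdh had 1690, 1859, 1664 and 2054 bases in positive and 2035, 1321, 1645 and 1927 bases in negative tumour libraries. The groups overlapped throughout, and both were below all 4 in vitro libraries. Its other 2 regions, centred 3.88 and 26.65 kb from the start at chr3:98335781-98336404 and chr3:98312929-98313711, were found in all 4 in vitro and in 0 of 8 tumour libraries. These 2 of the 34 regions (5.88%) were the only ones found so, against 4.76% of all regions. In all tumour and no in vitro libraries 0 of the 34 were found, against 0.173%. With equal peak numbers the region at 26.65 kb was in 1 of 2 positive and 2 of 2 negative in vitro libraries. The experiments were deposited separately and tumour libraries held 27406 to 55171 peaks where in vitro ones held 49634 to 63761, so these values are set side by side with no test.

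The remaining synthesis genes overlapped as well. Shmt2 had 731, 1082, 1003 and 1017 bases in positive and 883, 1344, 1142 and 1006 in negative tumour libraries, so the longer in vitro peak of positive cells was not seen there. Asns ranged from 916 to 1044 bases in positive and from 817 to 1235 in negative libraries, and Mthfd2 from 2042 to 2554 and from 2010 to 2633. Psph ranged from 1655 to 2741 bases and from 1743 to 2958. Psat1 ranged from 1702 to 2111 bases in positive and from 1954 to 3422 in negative libraries. The highest Psat1 value, in negative mouse 2, included a region at chr19:15902877-15905119, just past the gene's end, that was in all 4 in vitro libraries and in no other tumour library; without that mouse the negative range ended at 2150.

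**Figure D4:**
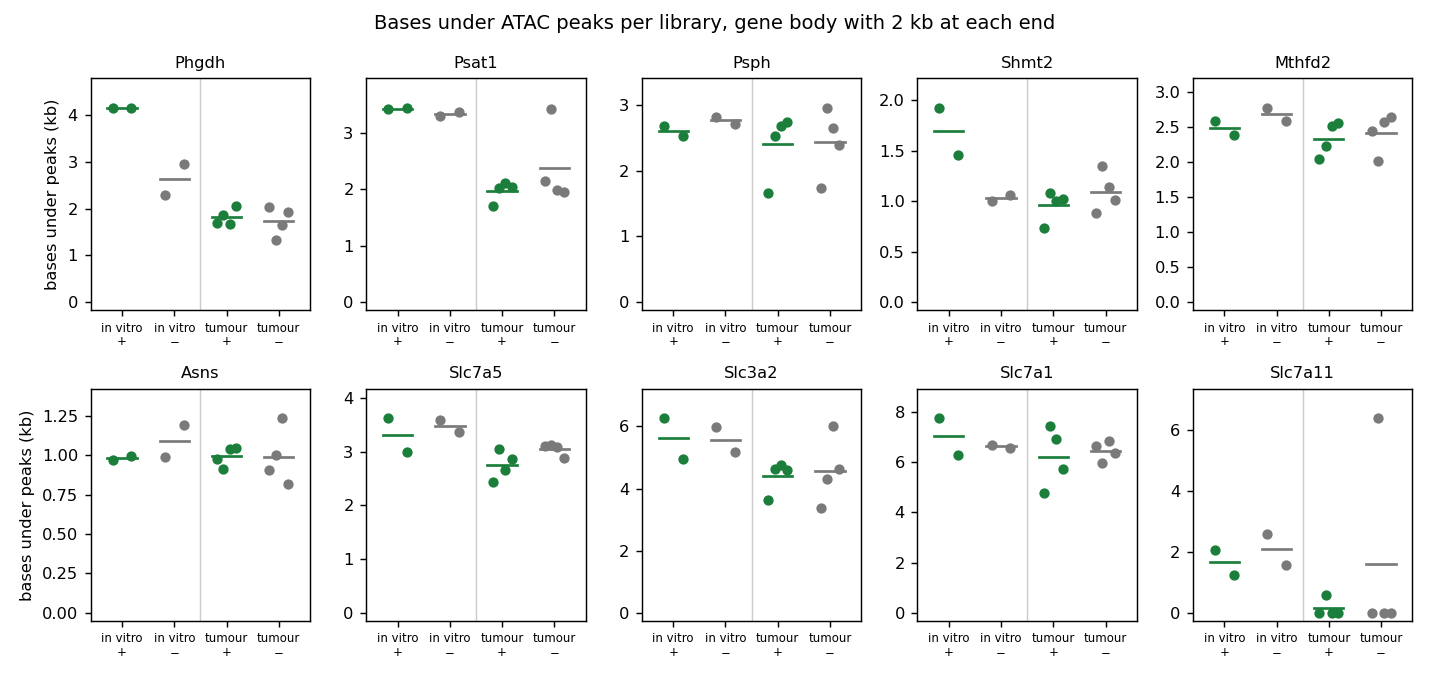
Bases under ATAC peaks (kb) in each gene body with 2 kb at each end, per library, for LC3-GFP positive (+, green) and negative (−, grey) cells in vitro and from tumours; points are libraries and lines are means. Phgdh and Shmt2 have both in vitro positive libraries above the negative ones, and in tumours the populations overlap at all 10 genes.

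At the transporter Slc7a1, 1 internal region followed the transferred population in tumours. It lay at chr5:148387914-148389827, within the gene body, centred 11.03 kb from the 5′ end used in the RNA table and 3946 bases past a second start in RefSeq. Positive mice 1 to 4 had 631, 569, 876 and 753 bases under peaks there, and negative mice 1 to 4 had 0. It was the only one of the 34 regions found in all positive and no negative tumour libraries, where 0.689% of 71837 tumour regions were found so and 1.04% the other way. The authors' fold enrichment of these peaks was 4.30 to 5.30 and their −log10 q was 6.91 to 11.1. Keeping only peaks with −log10 q of at least 3 left 4 of 4 positive and 0 of 4 negative mice, and cutting every library to the same number of peaks left 3 of 4 and 0 of 4. The region was chosen from 34 for this pattern, so the values are a description.

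In vitro, the same region had 1544 and 1345 bases under peaks in positive replicates 1 and 2, 0 in negative replicate 1 and 1076 in negative replicate 2. Both positive libraries were above both negative ones, and the peak of negative replicate 2 was gone when −log10 q of at least 3 was asked for, though it remained when every library had the same number of peaks (2 of 2 positive and 1 of 2 negative libraries). A neighbouring region centred 22.26 kb from the 5′ end, at chr5:148377087-148378195, ran the other way, with 0 of 4 positive and 3 of 4 negative mice (588, 1109 and 783 bases, and 0 in negative mouse 2) and with peaks in 1 positive and both negative in vitro libraries. Summed over the gene, these opposed each other: Slc7a1 had 4761, 7442, 6925 and 5736 bases in positive and 6634, 5949, 6853 and 6357 in negative mice. No library had a peak over the second RefSeq start, at chr5:148392766-148393065 with its flanks, and the peak over the first was in all 12. The RNA of Slc7a1, measured in vitro, did not pass the test, and RNA of the tumour cells was not analysed here.

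Slc7a11 had a peak over its start in every in vitro library and in few tumour libraries. Its start region, chr3:50442875-50444542, covered 1305 and 1226 bases in positive and 1463 and 1560 bases in negative in vitro libraries, over both sets of ATF4 letters printed above. In tumours it was found in positive mouse 2 (597 bases) and negative mouse 2 (1281 bases) and in none of the other 6. The peak of positive mouse 2 was lost when −log10 q of at least 3 was asked for. Over the whole gene, tumour libraries had 0 bases except for 597 in positive mouse 2 and 6370 in negative mouse 2, the library with peaks at Dct, Lyz2 and Adgre1. Of its 5 regions in negative mouse 2, 3 were in no other library, and without that mouse Slc7a11 had peaks in 1 tumour library. The part of other cells in this was not tested.

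**Figure D5:**
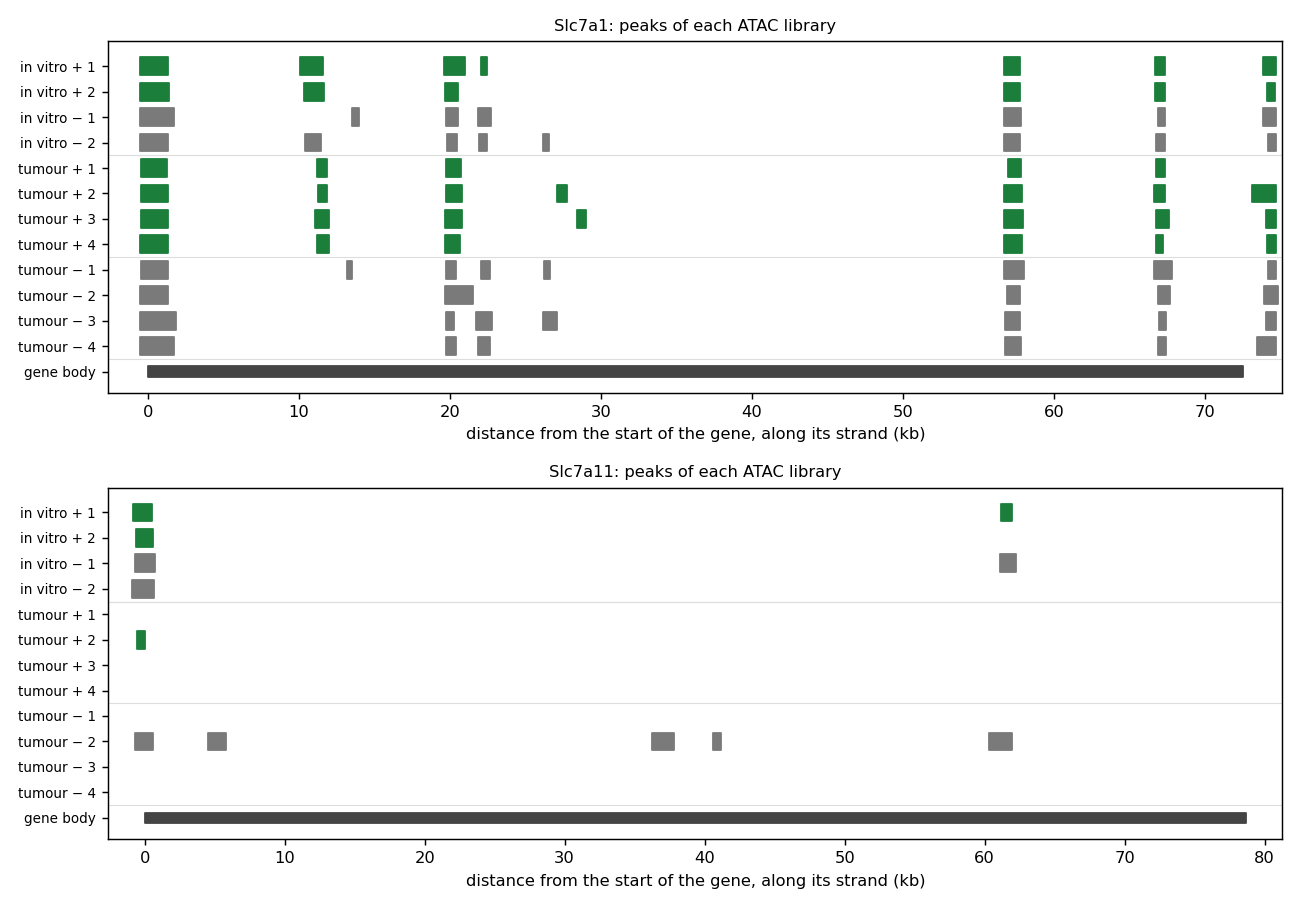
Peaks of each ATAC library along Slc7a1 and Slc7a11, by distance in kb from the gene's start along its strand (green, LC3-GFP positive; grey, negative; black, gene body; 1 row per library). The Slc7a1 region at 11.03 kb is in 4 of 4 positive and 0 of 4 negative tumour rows, and Slc7a11 has tumour peaks in 2 of 8 rows.

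Slc3a2 had 3638, 4629, 4757 and 4600 bases in positive and 3377, 4303, 6003 and 4624 bases in negative tumour libraries, with the groups mixed. Its peaks lay over the 5′ end used in the RNA table and over a RefSeq start inside the gene, where a region centred 10.38 kb in was found in all 12 libraries at 2393 to 2753 bases. A region centred 17.38 kb in, just past the gene's end, was in 3 of 4 in vitro libraries and in negative mouse 3 alone among tumour libraries.

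Set side by side, RNA calls and covered bases took different directions at different genes in vitro. Of the 5 genes called lower in RNA, covered bases were more in positive cells at Shmt2, less at Mthfd2, by 1 base at the nearest libraries, and overlapping at Asns, Slc7a5 and Slc3a2. As a share of the library's covered bases, Slc7a5 and Slc3a2 were lower in positive cells. Their mean differences were -10.4 and -11.2 bases per Mb. Totals were 64539203 and 52041527 bases in positive and 56352819 and 47523030 in negative libraries. A larger total lowers the share of a gene whose coverage is unchanged. On that scale Mthfd2 was lower as well, Shmt2 was higher although its RNA was called lower, and Asns overlapped. Psph and Slc7a11 were also lower, with RNA that did not pass the test. No share over all genes was taken on that scale, so these directions are a description and not a match with RNA. Phgdh, with the largest gap in covered bases, had an RNA difference of 0.06 on the log2 scale. The labels do not tie RNA libraries to ATAC libraries, so the 2 assays were not paired by replicate.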

How the data were processed

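RNA was measured in 4 libraries and ATAC-seq in 12, grouped by the population label. For RNA the authors deposited unscaled estimated counts, 22.5% to 23.8% of them not whole in a library; STAR, Partek, DESeq2 and the mm10 build are named in the submitters' processing notes. For ATAC the authors deposited peaks called in each library, with the pileup signal, the fold enrichment ratio, and −log10 of the p-value and q-value, per the file headers; BWA, cutadapt, MACS2 and Partek are named in the submitters' processing notes. Versions, strand, the handling of shared reads and any shift for the Tn5 cut are not given in the sources used here. ATAC read depth is unknown.

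Estimated counts were rounded, filtered with filterByExpr and scaled by TMM, and edgeR 4.0.16 (R 4.3.3) ran estimateDisp and its quasi-likelihood test over 12022 genes with Benjamini-Hochberg adjustment. CPM is on TMM-scaled library sizes, and 3 counts were 0.167 to 0.210 CPM. Covered bases per gene and regions (peaks joined at 1 bp of overlap) came from peak positions, with gene bodies from the RNA table. Exon annotation was not used here. Alternatives were other scalings, DESeq2 1.42.0, no filter, a replicate block, each library left out, a stricter q, equal peak numbers, other windows and, added after seeing the data, RefSeq gene bodies.

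All 10 genes are named; from each list, up to 3 genes called higher and 3 lower with the largest log2 changes, and Atf4, Shmt1, Aldh18a1, Slc43a2 and Slc1a5, chosen after their values were seen; some list genes are not reported here. The genes, lists and promoter letters were chosen with earlier results of these data known. The list of CD4 T-cell markers had 1 of 2 tested genes higher and 1 lower, and the melanoma marker Pmel was at 1.06 to 1.96 CPM and not called.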

Additional observations from a re-analysis of the deposited data

Results flagged for a closer look

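Over 22 groups of 4 tumour libraries (peak numbers and covered bases of the 10 genes), 5 held 1 value far from the other 3 (Dixon's test at 95%). The usual chance rate of 1 in 20 assumes separate groups of normal values. These groups share mice, and at Slc7a11 the other 3 values were 0 in both populations, so that rate does not carry over. Positive mouse 1 had 27406 peaks, where the next lowest positive mouse had 36539. The same mouse was lowest at Slc3a2, with 3638 covered bases against 4600 in the next. Negative mouse 2 was highest at Psat1, with 3422 bases against 2150 in the next, and at Slc7a11, with 6370 bases against 0. Positive mouse 2 was highest at Slc7a11, with 597 bases against 0 in the other positive mice.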

How the results depend on the processing

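The 5 genes called lower in RNA, Asns, Shmt2, Mthfd2, Slc7a5 and Slc3a2, were called lower in all 10 alternatives run. With library size alone 1 gene, Phgdh, was called higher (adjusted p = 0.0413), and the share of higher calls over all genes was 65.1% against 45.4%. The number of genes called, 3000, was 1688 with DESeq2, 1722 without positive replicate 1 and 1806 without positive replicate 2. Whether replicate numbers pair the RNA libraries is not in the labels, and the correlation of deviations of positive and negative replicate 1 was 0.10; with the replicate block 3568 genes and 6 of the 10 were called, Psat1 being added (adjusted p = 0.0469). The Slc7a1 log2 difference ranged from -0.023 (without negative replicate 2) to 0.073 when 1 library was left out. Of 80 list counts, 16 moved by over 1.5 times.

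In vitro, 6 to 9 of the 10 genes did not overlap when 1 library was left out, against 5. Fewer libraries overlap less, and no share over all genes is given at that setting. The mean difference at Psat1 was -3 bases with the gene body alone and -5.11 bases per Mb of covered bases, and at Mthfd2 14 bases with a 10 kb window and 14 with RefSeq gene bodies; the cause was not tested. In tumours, 0 to 1 did not overlap when 1 library was left out, and 1, Slc7a5, under the replicate block. With 2 libraries a group and unknown ATAC depth, small differences could not be seen.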
